A study of Mus musculus with 23 samples.

Results

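Retinas of heterozygous P23H rhodopsin knock-in mice that had received any injection were compared with retinas of P23H mice that had received none. All were taken at postnatal day 90. Membership followed the treatment recorded for each library and used no measured value. It took 21 of the 23 small RNA libraries of the series, each from 1 retina. The 16 injected libraries were 2 given saline, 3 given DNA nanoparticles with the genomic human rhodopsin gene (human gRHO) and 11 given the genomic mouse gene (mouse gRho), and 5 were uninjected. The 2 wild-type libraries were left out, so every group carries the mutant allele. The labels use the word injected for saline and un-injected for the controls, and the gene-treated retinas were counted as injected. The route and the age at injection were not given in the sources used here.

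Library titles were read as a number, an ear mark and an eye, which is an inference. On that reading the libraries came from 10 injected mice (1 saline, 2 human gRHO, 7 mouse gRho) and 3 uninjected mice, and the eyes of a mouse were summed. All 3 uninjected mice share 1 leading title number that no injected mouse carries, so that number and the lack of injection cannot be told apart. The labels do not say whether mice were independent, and p-values reflect only how these sums vary.

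P23H rhodopsin misfolds in rod photoreceptors, and the rods of these mice degenerate over time. An injection into the eye is itself an injury that can detach the retina for a while and engage Mueller glia, microglia and infiltrating leukocytes. MicroRNAs are short RNAs that guide Argonaute proteins to mRNAs, mostly through bases 2 to 8 of the mature strand, the seed. Several are restricted to one retinal or immune cell type, so a small RNA profile carries a record of cell makeup as well as of regulation. In bulk retina, fewer cells of a type and less RNA per cell cannot be told apart.

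The matrix names a locus and no arm, so both mature strands are given for the loci on which the results below turn. They are mouse RefSeq sequences (GRCm38.p6) written 5′ to 3′, with the seed in capitals. Of the loci listed first, mir-28a, mir-296, mir-99b, mir-455 and mir-339 were lower in injected mice, and the 5p strand of mir-708, a row that was not lower, is shown because it shares a seed with mir-28a.
miR-28a-5p: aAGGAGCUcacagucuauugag
miR-28a-3p: cACUAGAUugugagcugcugga
miR-708-5p: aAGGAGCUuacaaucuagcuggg
miR-296-5p: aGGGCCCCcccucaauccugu
miR-296-3p: gAGGGUUGgguggaggcucucc
miR-99b-5p: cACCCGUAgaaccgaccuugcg
miR-99b-3p: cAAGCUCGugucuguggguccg
miR-455-5p: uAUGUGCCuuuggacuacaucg
miR-455-3p: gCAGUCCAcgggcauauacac
miR-339-5p: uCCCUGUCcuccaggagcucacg
miR-339-3p: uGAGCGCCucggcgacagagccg

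The next loci were higher in injected mice. The first 4 lie in the imprinted Dlk1-Dio3 region, whose miRNAs are made from the maternal allele and are abundant in neurons.
miR-369-5p: aGAUCGACcguguuauauucgc
miR-369-3p: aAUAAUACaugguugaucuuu
miR-376b-5p: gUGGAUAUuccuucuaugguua
miR-376b-3p: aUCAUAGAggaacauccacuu
miR-136-5p: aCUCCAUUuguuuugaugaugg
miR-136-3p: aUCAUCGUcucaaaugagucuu
miR-433-5p: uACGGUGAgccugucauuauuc
miR-433-3p: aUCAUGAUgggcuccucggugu
miR-26a-5p: uUCAAGUAauccaggauaggcu
miR-26a-2-3p: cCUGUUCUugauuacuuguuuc

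None of the strands listed for the higher loci shared a seed with another. miR-28a-5p and miR-708-5p both carry the seed AGGAGCU. miR-28a-5p and miR-339-5p share a run of 10 bases, aggagcucac, at different places in the strand. RefSeq entries were found for 37 of 41 loci described below, and mir-151, mir-124-1, mir-142a and mir-143 are named only.

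Mature miRNA reads numbered between 5968388 and 14120605 per library and between 6980992 and 25046363 per mouse. The rows of the matrix hold 10.4% to 19.5% of them, so a row need not hold all reads of its locus. Counts were scaled to these reads with TMM factors and are given as CPM (counts scaled to library size). Rows of retinal miRNAs were present in every mouse, with means over 13 mice of 3293 CPM for mir-9-1, 414 CPM for mir-183 and 124 CPM for mir-204. Of 903 mature rows, 501 had too few counts, 60 jumped between separate levels across libraries, and 342 were tested. In 6 libraries ribosomal RNA (rRNA) took over 3% of aligned reads: the left eye of uninjected mouse 2, both eyes of uninjected mouse 3, the left eyes of mouse gRho mice 2 and 6, and the right eye of mouse gRho mouse 3. The rRNA share was 2.97% ± 2.42 (SD, n = 3) in uninjected mice and 1.24% ± 1.42 (SD, n = 10) in injected mice (exact permutation test, 2-sided p = 0.168). The library of uninjected mouse 2 and the right eye of mouse gRho mouse 1 were also poor in retinal miRNAs, with mir-183 at 129 and 36.5 CPM. Uninjected mouse 2 has no other library, so fits without these 2 libraries keep uninjected mice 1 and 3 only.

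No miRNA row passed the threshold between injected and uninjected mice. Of 342 rows, 0 were higher (0%) and 0 lower (0%) by the edgeR quasi-likelihood test with a Benjamini-Hochberg adjusted p of 0.05 as threshold (10 against 3 mice), and DESeq2 called 0 as well. The smallest adjusted p in edgeR was 0.132. At an unadjusted p of 0.05, edgeR listed 30 rows where about 17.1 would come by chance, and DESeq2 listed 36. The rows of edgeR were 14 higher rows (4.09% of rows tested) and 16 lower rows (4.68%). Levels of injected and uninjected mice did not overlap in 2 higher rows (0.585%) and 6 lower rows (1.75%). Of these, mir-540 (higher) and mir-20a, mir-350 and mir-5620 (lower) measured under 3 CPM on average, and the others are described below. The median log2 fold change over all rows was 0.03, with 179 rows higher and 163 lower. Single mice moved these counts. Without uninjected mouse 1 edgeR called 5 rows, all lower, and listed 48 at an unadjusted p of 0.05, and it called 1 row without mouse gRho mouse 6. Without uninjected mouse 2 it listed 14 and called 0, and without mouse gRho mouse 1 it listed 49 and called 0.

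The precision differed with abundance. Standard errors of log2 fold changes had a median of 0.34 over all rows and of 0.19 over the 126 rows that averaged 10 CPM or more. For 168 rows (49.1%) the 95% interval lay wholly between -1 and 1 on the log2 scale, which bounds a change at a doubling or halving. For the other rows the interval reached past those bounds, so a change of that size was not bounded at this depth and number of mice. The rows described next are the 8 with the smallest unadjusted p in each direction among those averaging 10 CPM or more, with the 3 smallest of all.

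**Figure D1:**
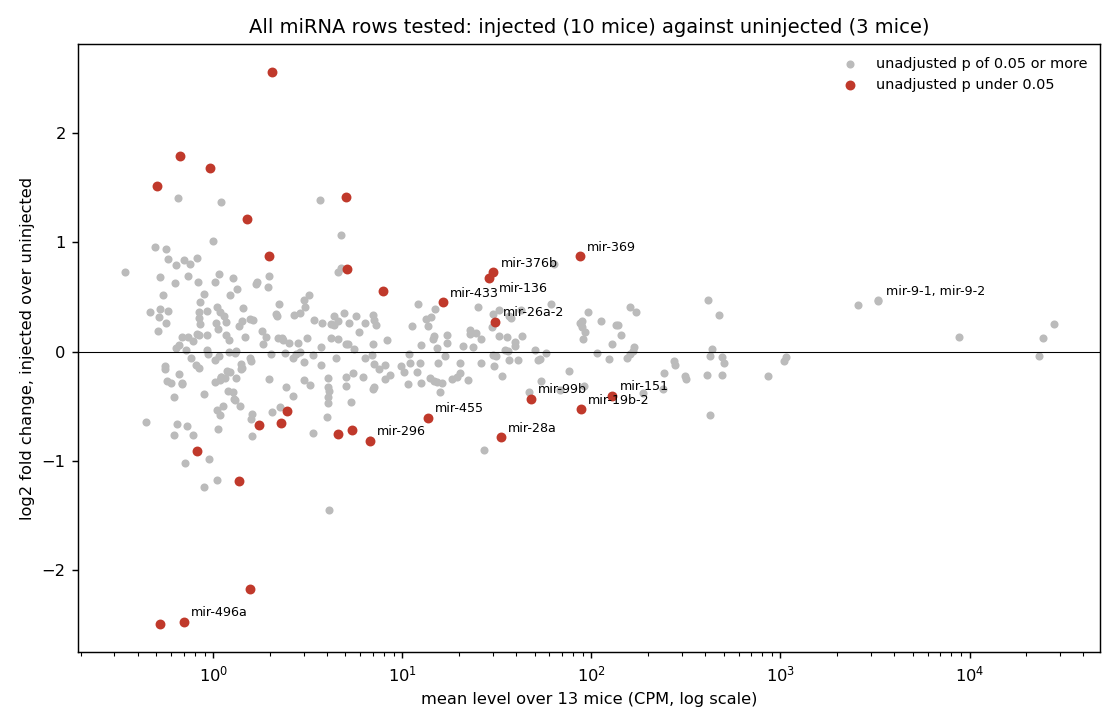
Each point is 1 of the 342 miRNA rows, placed by its mean level over 13 mice (CPM, log axis) and its log2 fold change between 10 injected and 3 uninjected mice; red points have an unadjusted p under 0.05. Fold changes spread widest at low levels, from -2.50 to 2.56, and the labelled mir-28a, mir-99b, mir-151 and mir-369 lie among abundant rows.

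Among the lower rows, mir-28a had the smallest unadjusted p of the rows averaging 10 CPM or more. It lies in an intron of Lpp, the gene of a focal adhesion protein. The uninjected mice measured 41.2, 61.3 and 44.8 CPM. The saline mouse measured 24.5 CPM, the human gRHO mice 33.5 and 19.1 CPM, and the mouse gRho mice from 20.1 to 41.4 CPM with a median of 29.1 CPM over all injected mice. The groups overlapped by 1 mouse, mouse gRho mouse 5, which stood just above the lowest uninjected mouse. The difference on the log2 scale was -0.78 (SE 0.19, 95% interval -1.18 to -0.38), with means of 28.5 ± 6.5 CPM (SD, n = 10) and 49.1 ± 10.7 CPM (SD, n = 3). It did not pass (edgeR adjusted p = 0.132).

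mir-151 and mir-708 belong with mir-28 to one family by sequence, and mir-151 lies in an intron of Ptk2, the focal adhesion kinase gene. mir-151 measured 145, 173 and 158 CPM in the uninjected mice and from 100.2 to 146 CPM in the injected mice. Only mouse gRho mouse 1 reached the lowest uninjected value. Its right eye, the library poor in retinal miRNAs, measured 179 CPM, and its left eye measured 104 CPM. Eyes of uninjected mice differed too, with right and left at 121 and 173 CPM in mouse 1 and at 185 and 134 CPM in mouse 3. The log2 fold change of mir-151 was -0.40 (SE 0.13), and the row did not pass (edgeR adjusted p = 0.299). In left and right eyes it was -0.47 (SE 0.13) and -0.22 (SE 0.25). The 5p strand of mir-708 has the seed of miR-28a-5p, and as background this miRNA is induced by the endoplasmic reticulum stress factor CHOP and targets rhodopsin mRNA. mir-708 stood at 91.9 ± 9.8 CPM (SD, n = 10) in injected and 84.5 ± 16.8 CPM (SD, n = 3) in uninjected mice. Its log2 fold change of 0.12 (SE 0.15) had the opposite sign to those of mir-28a and mir-151, and the difference between these rows was not tested.

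mir-296 lies in the imprinted Gnas region and had the smallest unadjusted p of all rows. The uninjected mice measured 7.51, 9.85 and 12.9 CPM. The saline mouse measured 6.50 CPM, the human gRHO mice 6.03 and 5.79 CPM, and the mouse gRho mice between 4.20 and 6.66 CPM. All 10 injected mice lay below all 3 uninjected mice once eyes were summed. Single retinas overlapped, with the right eye of uninjected mouse 1 at 6.08 CPM and injected retinas up to 8.49 CPM. The log2 fold change of mir-296 was -0.82 (SE 0.19, 95% interval -1.23 to -0.40), and the row did not pass (edgeR adjusted p = 0.132). These levels rest on few reads, between 30 and 153 per library.

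mir-99b, made in one cluster with let-7e and mir-125a and enriched in Mueller glia, did not overlap between groups either. It measured 53.4, 66.5 and 58.8 CPM in the uninjected mice, 47.0 CPM with saline, 38.8 and 44.3 CPM with human gRHO and from 35.9 to 51.5 CPM with mouse gRho. Single retinas overlapped here too, with uninjected ones down to 47.3 CPM and injected ones up to 55.8 CPM. The log2 fold change was -0.43 (SE 0.14; edgeR adjusted p = 0.299). Its cluster partners did not follow it, with log2 fold changes of 0.05 (SE 0.14) for let-7e and 0.02 (SE 0.14) for mir-125a. As background, the 3 are processed from one primary transcript.

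The other lower rows had smaller or less even differences. mir-455, which lies in the collagen gene Col27a1, stood at 12.2 ± 2.8 CPM (SD, n = 10) in injected and 18.7 ± 4.7 CPM (SD, n = 3) in uninjected mice, a log2 fold change of -0.60 (SE 0.20). mir-19b-2, of the X-linked cluster related to miR-17/92, had a log2 fold change of -0.53 (SE 0.19). Its 3p strand is named miR-19b-3p, without the copy number, so the row may hold reads of another copy. Uninjected mouse 1 at 72.1 CPM lay within the injected range of 64.6 to 102 CPM, while uninjected mice 2 and 3 both stood at 137 CPM. mir-671 did not overlap by mouse, with a highest injected mouse of 13.60 CPM and a lowest uninjected mouse of 13.63 CPM. By retina it did, and its log2 fold change was -0.28 (SE 0.14). mir-339 and mir-501 overlapped, with log2 fold changes of -0.29 (SE 0.15) and -0.26 (SE 0.14).

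mir-496a shows how 1 mouse can carry a fold change at a low level. Uninjected mouse 3 measured 5.21 CPM, whereas uninjected mice 1 and 2 both measured 0.27 CPM. The injected mice measured from 0.0993 to 0.812 CPM, so 2 of 3 uninjected mice lay within their range. Its log2 fold change of -2.47 (SE 0.66; edgeR adjusted p = 0.204) became 0.36 without uninjected mouse 3.

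**Figure D2:**
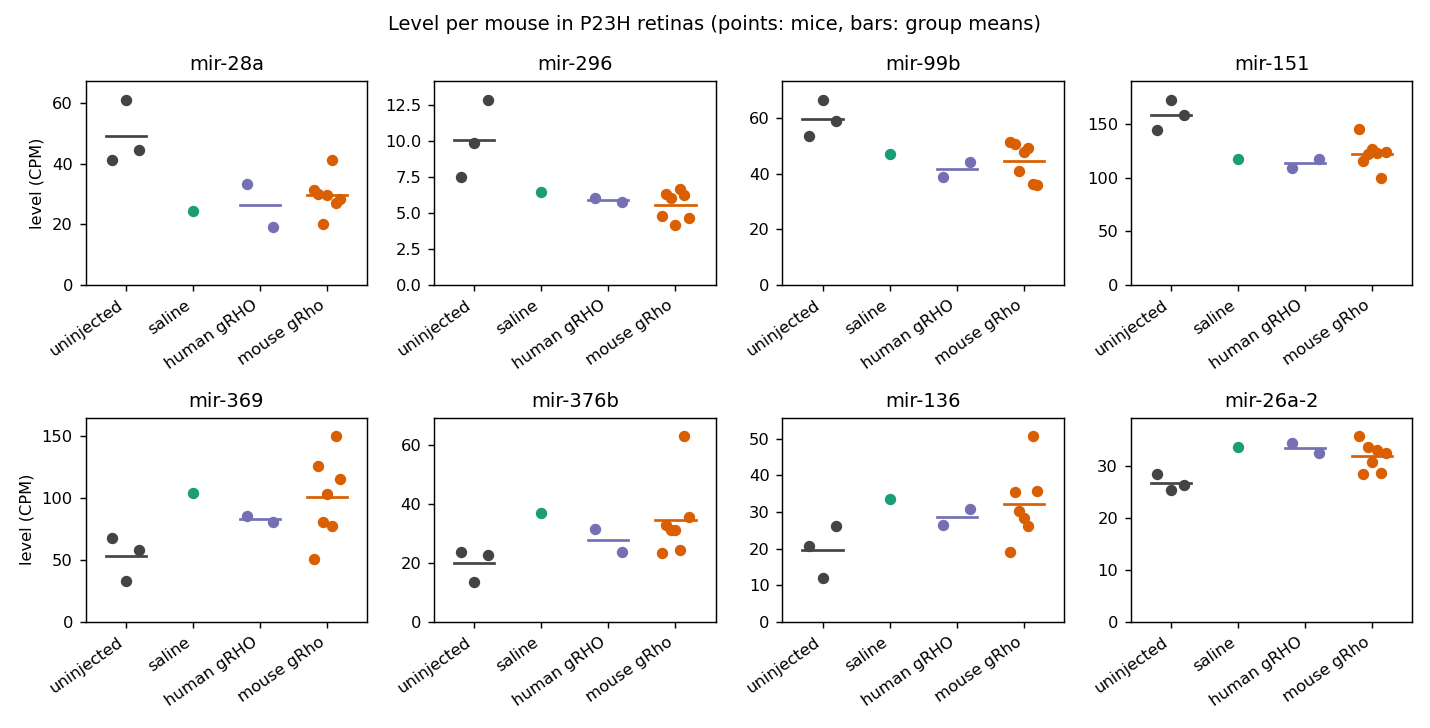
Levels in CPM (vertical axes, from 0) of 8 rows in each of 13 P23H mice, with 1 point per mouse and a bar at the mean of each group of 2 or more mice. The 3 uninjected mice lie above all injected mice for mir-296 (lowest 7.51 CPM against a highest of 6.66 CPM) and mir-99b, below all of them for mir-26a-2, and overlap them for mir-28a, mir-151, mir-369, mir-376b and mir-136.

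Among the higher rows, mir-369 had the largest difference above 10 CPM. It measured 67.9, 32.9 and 57.8 CPM in the uninjected mice. The saline mouse stood at 104 CPM, the human gRHO mice at 85.1 and 80.5 CPM and the mouse gRho mice between 51.1 and 150 CPM. Mouse gRho mouse 1, at 51.1 CPM, was the only injected mouse within the uninjected range. Its right eye, the library poor in retinal miRNAs, measured 18.8 CPM, and its left eye measured 85.9 CPM. The difference of mir-369 between injected and uninjected mice was 0.88 on the log2 scale (SE 0.28, 95% interval 0.29 to 1.46), and it did not pass (edgeR adjusted p = 0.299).

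The row of mir-376b measured 23.7, 13.5 and 22.8 CPM in the uninjected mice and from 23.5 to 63.1 CPM in the injected mice, with a log2 fold change of 0.73 (SE 0.27). mir-136 measured 20.8, 12.01 and 26.1 CPM against 19.1 to 50.7 CPM, with a log2 fold change of 0.68 (SE 0.25). In both rows uninjected mouse 2 was the lowest of 13 mice and mouse gRho mouse 6 the highest. mir-433 had a log2 fold change of 0.45 (SE 0.19), with means of 17.5 ± 3.3 CPM (SD, n = 10) and 12.8 ± 2.0 CPM (SD, n = 3). The edgeR adjusted p-values of mir-376b, mir-136 and mir-433 were 0.374, 0.374 and 0.459.

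mir-26a-2, whose main strand is also made from mir-26a-1, was the higher row with the tightest groups once eyes were summed. The uninjected mice measured 28.31, 25.2 and 26.4 CPM, and the lowest injected mouse measured 28.34 CPM and the highest 35.7 CPM. The groups did not overlap, but the nearest mice differed by less than the spread within either group. Single retinas did overlap. Uninjected mouse 3 measured 18.9 CPM in its right and 37.9 CPM in its left eye, and injected retinas measured from 23.8 to 39.7 CPM. Over the summed mice the log2 fold change was 0.28 (SE 0.11; edgeR adjusted p = 0.459). It was 0.08 (SE 0.15) in left and 0.46 (SE 0.23) in right eyes. The row of mir-26a-1, at a mean of 1.04 CPM, differed by -0.53 on the log2 scale (SE 0.48).

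mir-9-1 and mir-9-2, copies of a neuronal and glial progenitor miRNA that can share reads, had log2 fold changes of 0.47 (SE 0.23) and 0.47 (SE 0.23). mir-9-1 measured 3467, 1488 and 2656 CPM in the uninjected mice and between 2362 and 4578 CPM in the injected mice. mir-330 had a log2 fold change of 0.38 (SE 0.18). The edgeR adjusted p of these rows was 0.557 in each case.

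The miRNAs that mark retinal cell types did not pass in either direction, and their intervals were wide. mir-183, mir-182 and mir-96 form one cluster that photoreceptors express strongly and that follows light. mir-183 measured 456, 130 and 369 CPM in the uninjected mice and from 277 to 572 CPM in the injected mice. The difference was 0.48 on the log2 scale (95% interval -0.21 to 1.16). Those of mir-182 and mir-96 were 0.28 (95% interval -0.57 to 1.14) and 0.80 (95% interval -0.08 to 1.68). All 3 rows were higher, beside 179 of the 342 rows tested, and 0 passed.

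The 6 rows of miR-124 and miR-9, the main neuronal miRNAs, were also all higher with 0 passing and a median log2 fold change of 0.36, beside 0.03 for all rows. These rows are copies of the same miRNAs at different loci and can share reads, so they are not 6 separate observations. mir-124-1 measured 112, 30.6 and 93.0 CPM in the uninjected mice and 57.7 to 119 CPM in the injected mice. Uninjected mouse 2 was the lowest of 13 mice in both lists. The level of the miR-183 cluster rows, taken as the median deviation from the 13-mouse median on the log2 scale, was -1.81 in uninjected mouse 2, 0.09 in mouse 1 and -0.31 in mouse 3. It ran from -0.81 to 0.46 in the injected mice. The values for miR-124 and miR-9 were -1.31, 0.13 and -0.16, against -0.50 to 0.36.

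When the 2 libraries low in retinal miRNAs were left out, the medians of the lists were 0.22 and 0.14. These libraries had the lowest mir-183 and mir-124-1 of all 21, and both rows belong to these lists. Part of that shift therefore follows from the choice of libraries. That fit also loses uninjected mouse 2 but only 1 eye of mouse gRho mouse 1. Without the 6 rRNA-rich libraries the medians were 0.06 and -0.06. That last subset keeps 1 uninjected mouse, mouse 1, so its values compare the injected mice with that mouse and its standard errors come from the spread of the injected mice. Within the 6 rRNA-rich libraries alone they were 0.98 and 0.79. Those libraries come from 3 mouse gRho mice and uninjected mice 2 and 3, and include the uninjected library poor in retinal miRNAs. The part of library quality in the higher levels of these lists was not tested beyond these values.

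The miR-204 family is made in pigment epithelium and Mueller glia. mir-204 measured 123 ± 21 CPM (SD, n = 10) in injected and 129 ± 20 CPM (SD, n = 3) in uninjected mice. Its log2 fold change was -0.07 (95% interval -0.43 to 0.29), which bounds a change more closely than for the photoreceptor rows. mir-211 had a log2 fold change of 0.18 (95% interval -0.28 to 0.63). Of 5 tested rows of the miR-181 family, abundant in inner retina, 3 were higher and 2 lower, with a median of 0.15, and mir-181a-1 stood at 0.15 (95% interval -0.24 to 0.55). mir-132 and mir-212, induced by neuronal activity, stood at 0.37 (SE 0.24) and 0.20 (SE 0.25). Of 10 tested Mueller glia rows, 3 were higher and 7 lower, with a median of -0.07. The 3 higher rows were mir-9-1, mir-9-2 and mir-9-3, which are also counted in the neuronal list, and all other rows of this list were lower.

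The miRNAs of injury, gliosis and stress showed 0 of 10 tested rows past the threshold, with 7 higher, 3 lower and a median of 0.12. mir-21a, which reactive glia and many injured tissues raise, measured 2.13, 1.89 and 2.55 CPM in the uninjected mice and from 1.24 to 4.24 CPM in the injected mice. The difference was 0.11 on the log2 scale (95% interval -0.64 to 0.86). mir-146b was near 1 CPM in both groups, at 1.08 ± 0.49 CPM (SD, n = 10) and 1.19 ± 0.61 CPM (SD, n = 3). mir-31 had the largest difference of the list, -0.81 (95% interval -1.74 to 0.12), with uninjected mice at 4.08, 14.2 and 11.9 CPM and injected mice from 2.47 to 11.95 CPM. Its log2 fold change was -0.13 (SE 0.38) with the rRNA share as a covariate and -0.20 (SE 0.43) within the rRNA-rich libraries. Without those libraries it turned to 0.21 (SE 0.65), against uninjected mouse 1 alone. The log2 fold change of mir-31 was -1.25 (SE 0.44) without uninjected mouse 1 and -0.49 (SE 0.52) without uninjected mouse 2. mir-210, a target of hypoxia-inducible factor, stood at 0.33 (95% interval -0.58 to 1.25). mir-146a, mir-155 and mir-34a jumped between levels across libraries and were not tested.

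Leukocyte and vessel miRNAs gave no call either. mir-142a, made in all blood-derived cells including microglia, measured 32.9, 39.7 and 41.1 CPM in the uninjected mice. In the injected mice it measured 16.7 to 57.2 CPM, with a log2 fold change of -0.23 (95% interval -0.73 to 0.28). mir-223, of neutrophils and other myeloid cells, measured 3.34 ± 0.99 CPM (SD, n = 10) and 3.41 ± 1.01 CPM (SD, n = 3). Of 6 tested microglia and leukocyte rows, 2 were higher and 4 lower. Of 7 endothelial and mural rows, 1 was higher and 6 were lower, with a median of -0.12. mir-126a, made in endothelium, had a log2 fold change of -0.08 (95% interval -0.60 to 0.43). Those of mir-221, mir-222 and mir-143 were 0.14 (SE 0.15), -0.12 (SE 0.30) and -0.34 (SE 0.35).

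Markers of tissue outside the neural retina varied between mice of both groups. mir-451a, of red blood cells, measured 288, 1582 and 1419 CPM in the uninjected mice and from 207 to 2077 CPM in the injected mice, with a log2 fold change of -0.05 (95% interval -1.52 to 1.42). Without the 6 rRNA-rich libraries it was 2.04, which sets the injected mice against uninjected mouse 1 alone, the lowest of the uninjected mice, with an SE of 0.98 taken from the spread of the injected mice. Within those libraries it was -0.80 (SE 1.65). mir-184 and mir-203, of lens and surface epithelium, stood at -0.30 (SE 0.32) and 0.47 (SE 0.29). Of 7 tested rows of surface epithelium, lens and cornea, 3 were higher and 4 lower. Of 5 tested muscle rows, 2 were higher and 3 lower, and of 4 liver rows 3 jumped between levels and the remaining row was lower. The let-7 family, present in most mature cells, had 9 rows higher and 3 lower with a median of 0.19.

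**Figure D3:**
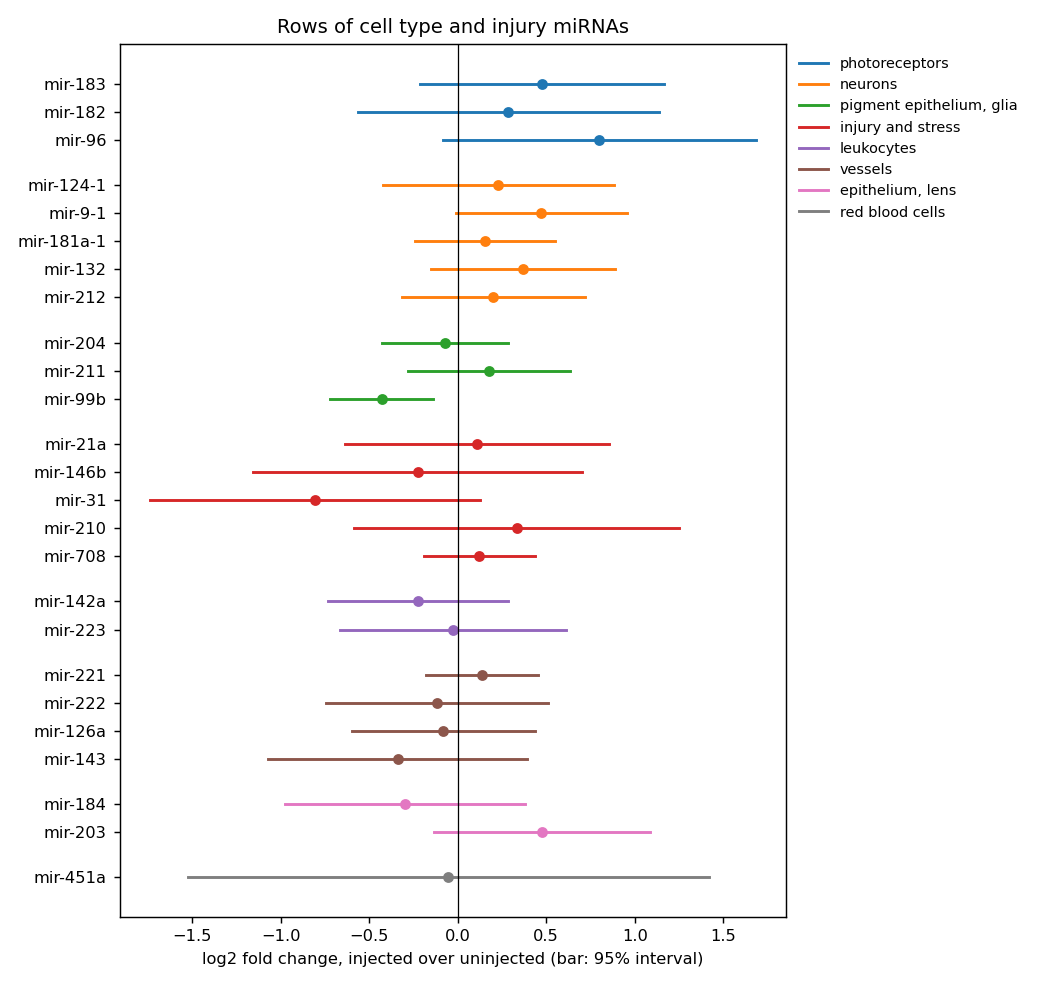
Log2 fold change between 10 injected and 3 uninjected mice (horizontal axis) of rows of cell type and injury miRNAs, with bars for the 95% interval and colours for the group of miRNAs. The bars cross 0 except that of mir-99b, and are narrowest for mir-99b, mir-708 and mir-221 and widest for mir-451a (-1.52 to 1.42). mir-99b was named by its rank of p in these mice, so its bar missing 0 is in part a result of that ranking.

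The imprinted Dlk1-Dio3 region held many of the rows with small p-values, and its list was added with the values known. Of 47 rows of that region present in the matrix, 10 jumped between levels, 3 had too few counts and 34 were tested. In injected mice 29 were higher and 5 lower, beside 179 higher and 163 lower of all 342 rows, and the median log2 fold change was 0.35 beside 0.03. None passed in edgeR. An unadjusted p under 0.05 was found for 11 of the 34, beside 30 of all 342 rows (4.09% higher and 4.68% lower), and of the 11 mir-496a was lower. The list was chosen with these values known, so the counts are a description. The 10 higher ones included mir-323 at 0.76 (SE 0.32), mir-376a at 0.56 (SE 0.24) and mir-381 at 0.88 (SE 0.39). mir-127, mir-382 and mir-434 stood at 0.41 (SE 0.20), 0.36 (SE 0.19) and 0.25 (SE 0.14).

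Rows of this region are read from long shared transcripts and are not independent of each other. The median deviation of the 34 rows was -0.13, -0.71 and -0.14 on the log2 scale in uninjected mice 1, 2 and 3. It was 0.12 with saline, -0.01 in both human gRHO mice and from -0.35 to 0.23 with mouse gRho. Mouse gRho mouse 1 was the only injected mouse below any uninjected mouse. When the 2 libraries low in retinal miRNAs were left out, 26 of 34 rows were higher (median 0.29), without the 6 rRNA-rich libraries 27 (median 0.29) and within them 31 (median 0.71). With mature reads and no TMM factor, which moved the median of all rows to -0.15, 24 were higher and the median was 0.17.

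Since saline, human gRHO and mouse gRho were pooled as injected, their fold changes against the same 3 uninjected mice are given side by side. These comparisons share their controls, and saline is 1 mouse that was assumed to vary like the others. For mir-28a the log2 fold changes were -1.001 (SE 0.39) with saline, -0.89 (SE 0.30) with human gRHO and -0.72 (SE 0.21) with mouse gRho. For mir-296 they were -0.63 (SE 0.38), -0.77 (SE 0.30) and -0.86 (SE 0.21). For mir-369 they were 0.97 (SE 0.46), 0.64 (SE 0.38) and 0.92 (SE 0.30), and for mir-26a-2 they were 0.33 (SE 0.20), 0.33 (SE 0.16) and 0.25 (SE 0.13). The treatments lay further apart in mir-455, at -0.82 (SE 0.36), -0.24 (SE 0.27) and -0.70 (SE 0.20). In the low row mir-496a, which rests on 1 uninjected mouse, they stood at -4.21 (SE 1.76), -2.51 (SE 1.14) and -2.30 (SE 0.74). mir-96 stood at 1.48 (SE 0.64), 0.76 (SE 0.54) and 0.68 (SE 0.43).

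A test among the 10 injected mice, which uses no uninjected mouse, asked whether the 3 treatments differed. edgeR called 0 of 342 rows and found 7 with an unadjusted p under 0.05, fewer than the 17.1 that chance would give, and DESeq2 called 1 (mir-3059). The smallest p-values belonged to mir-7019, mir-154 and mir-7043, each with an edgeR adjusted p of 0.992. mir-154, also of the Dlk1-Dio3 region, measured 9.27 CPM with saline and means of 17.7 CPM with human gRHO and 10.7 CPM with mouse gRho. With 1 saline and 2 human gRHO mice, this does not show that the treatments act alike.

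**Figure D4:**
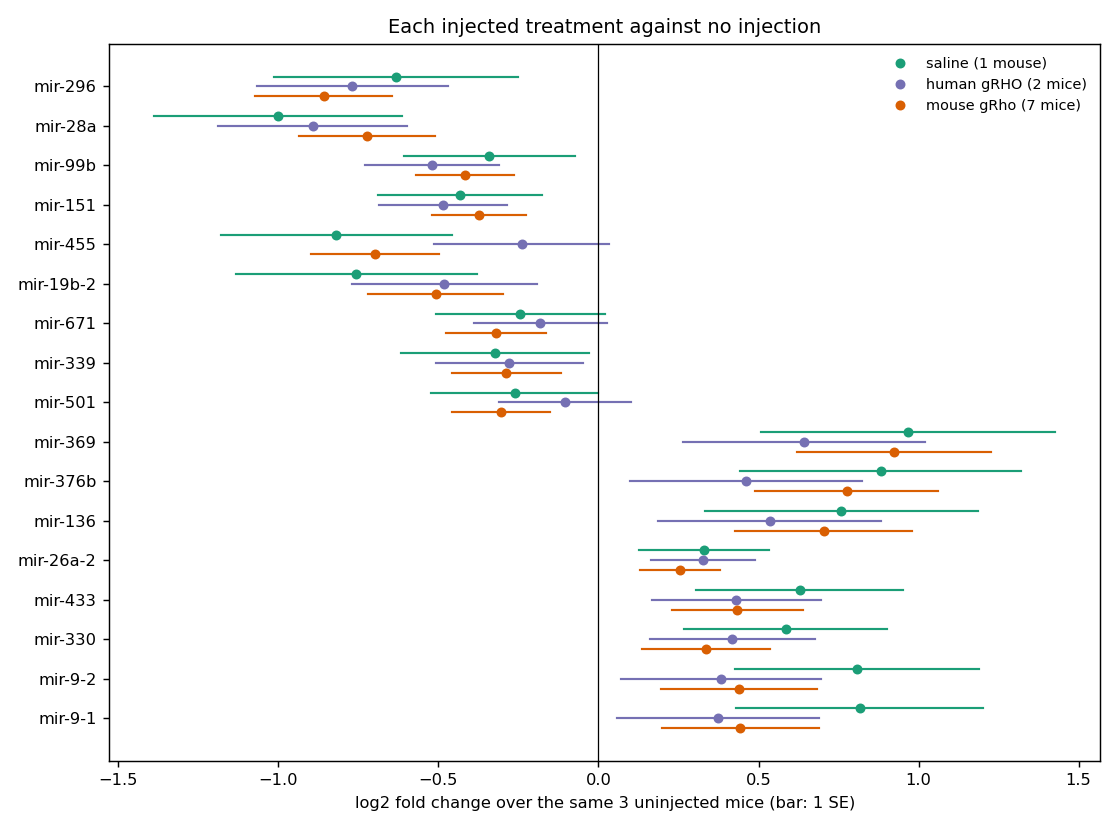
Log2 fold change of saline (1 mouse), human gRHO (2 mice) and mouse gRho (7 mice) over the same 3 uninjected mice, with bars of 1 standard error, for 17 rows ranked by p. For mir-28a the points stand at -1.001, -0.89 and -0.72, and in most rows the bars of the treatments overlap.

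Right and left eyes gave different pictures for mir-28a and for other rows ranked by p. In left eyes the uninjected retinas measured from 42.5 to 61.2 CPM (n = 3) and the injected ones from 17.6 to 32.0 CPM (n = 9), without overlap. In right eyes the uninjected retinas measured 31.9 and 48.9 CPM and the injected ones from 23.3 to 41.7 CPM (n = 7). The log2 fold change was -1.08 (SE 0.18; edgeR adjusted p = 0.00748) in left eyes and -0.28 (SE 0.27; edgeR adjusted p = 0.922) in right eyes. The difference between the eyes was not tested. The 2 libraries poor in retinal miRNAs fall on opposite sides of this split. The left eye of uninjected mouse 2 measured 61.2 CPM for mir-28a and 32.9 CPM for mir-369. The right eye of mouse gRho mouse 1 measured 40.2 CPM for mir-28a and 18.8 CPM for mir-369. Their part in the values by eye was not tested. Left and right eyes stood at -0.72 (SE 0.19) and -0.89 (SE 0.40) for mir-296, and at 0.86 (SE 0.24) and 0.51 (SE 0.52) for mir-369. For mir-455 they stood at -0.79 (SE 0.20) and -0.04 (SE 0.37), and for mir-136 at 0.90 (SE 0.20) and 0.05 (SE 0.38). mir-501 went the other way, at -0.07 (SE 0.14) and -0.56 (SE 0.23). Over the 18 rows ranked by p, the median absolute log2 fold change was 0.56 in left and 0.25 in right eyes. An unadjusted edgeR p under 0.05 was found for 15 of them in left and 3 in right eyes.

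The sizes of these differences varied between subsets of libraries. The 18 rows were ranked by p in the same mice, so a kept sign is in part a result of that ranking. All 18 rows ranked by p kept their sign without the 2 libraries low in retinal miRNAs, with a median absolute log2 fold change of 0.42 in place of 0.47, and 9 had an unadjusted p under 0.05. When the 6 rRNA-rich libraries were left out, 16 kept their sign, with a median of 0.26 and 0 at an unadjusted p under 0.05. That fit has uninjected mouse 1 as its only uninjected mouse and takes its spread from the injected mice, so the fewer small p-values do not show that the differences are absent. Within the rRNA-rich libraries, an alternative chosen after seeing the data, all 18 kept their sign with a median of 0.60. That subset sets 3 mouse gRho mice against 2 uninjected mice and holds no saline or human gRHO mouse. With the rRNA share as a covariate all 18 kept their sign with a median of 0.45.

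For mir-28a the log2 fold change was -0.48 (SE 0.32) without the rRNA-rich libraries and -1.10 (SE 0.28) within them. For mir-296 the values were -0.40 (SE 0.31) and -0.62 (SE 0.34), and for mir-369 they were 0.47 (SE 0.37) and 1.40 (SE 0.35). When the 2 libraries low in retinal miRNAs were left out, they were -0.64 (SE 0.21) for mir-28a, -0.80 (SE 0.22) for mir-296 and 0.70 (SE 0.23) for mir-369.

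**Figure D5:**
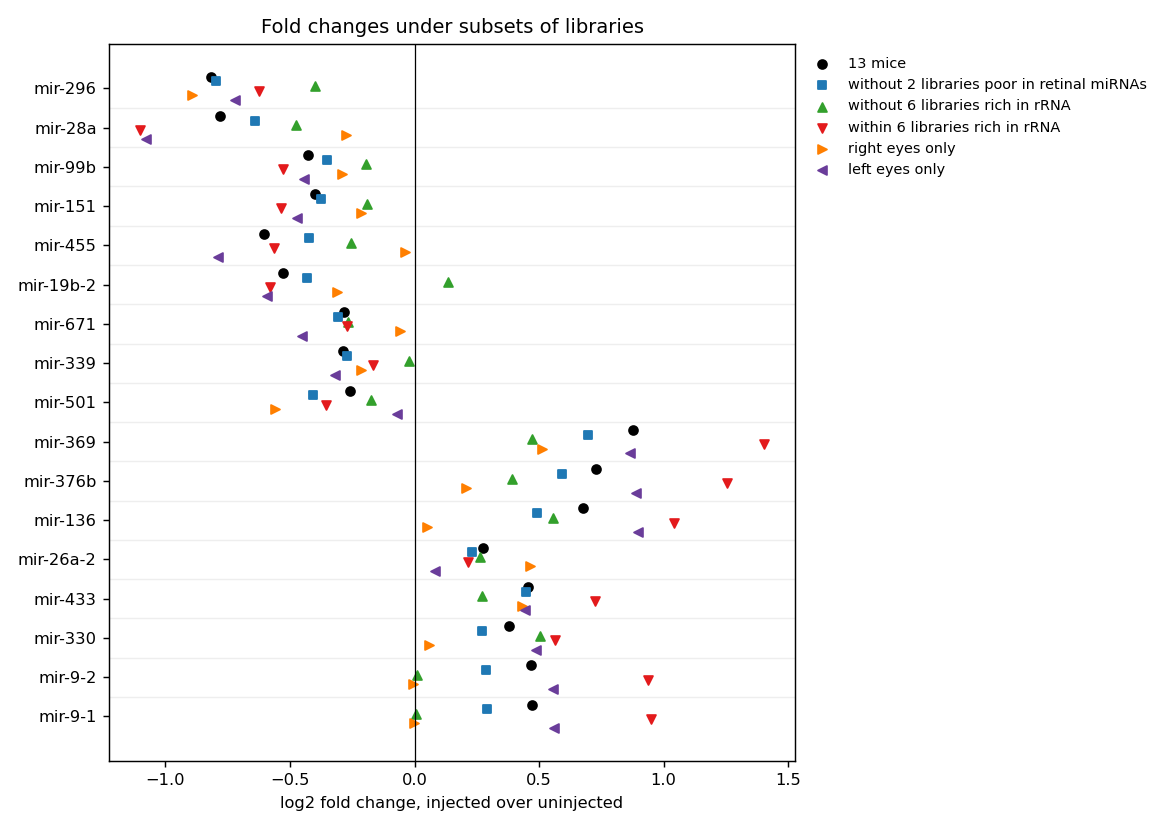
Log2 fold change between injected and uninjected mice (horizontal axis) of 17 rows ranked by p, in all 13 mice and in 5 subsets of libraries, 1 symbol per subset. mir-28a ranges from -1.10 within the rRNA-rich libraries to -0.28 in right eyes, while mir-19b-2 changes sign without the rRNA-rich libraries (0.14) and mir-9-1 and mir-9-2 lie at 0 in right eyes.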

How the data were processed

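The authors deposited counts per miRNA locus and annotation class, and a table of aligned read counts per library. The submitters' processing notes name DESeq2. Which aligner, annotation and build were used was not given in the sources used here. Mature counts of 21 P23H libraries were used (0 columns left unused), and eyes of a mouse were summed. Rows reaching 10 counts in 3 or more libraries were kept. Rows that reached 30 counts were set aside where the widest step between sorted log2(CPM + 0.5) values was 3.5 or more, or 2 or more with 2 libraries or more above and below it. edgeR 4.0.16 (R 4.3.3; robust quasi-likelihood, TMM factors on mature miRNA reads) tested 13 mice, with Benjamini-Hochberg adjustment over 342 rows and a threshold of 0.05, after a check on simulated data. DESeq2 1.42.0 was an alternative. Standard errors were the absolute log2 fold change over the square root of F. Rows named are the 8 smallest p in each direction at a mean of at least 10 CPM, the 3 smallest of all, and 25 miRNAs chosen by cell type. The members, lists and rules were chosen with earlier results of these data known. Rows under 10 CPM with non-overlapping groups, the Dlk1-Dio3 list and the cluster partners of named rows were chosen after their values were seen. Per the labels, frozen retinas gave Trizol RNA for small RNA libraries.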

Additional observations from a re-analysis of the deposited data

Results flagged for a closer look

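Among the 10 injected mice, 42 measures were examined for a mouse whose distance from the next exceeded the 95% limit of Dixon's ratio. Of these 5 held one, where chance gives about 1 in 20, or 2.1, for independent and normally distributed measures. The measures include related rows and were not transformed, so 5 against 2.1 does not show an excess. Mouse gRho mouse 6 stood highest for mir-376b, at 63.1 CPM with the next mouse at 37.1 CPM, and for mir-136, at 50.7 CPM with the next at 35.8 CPM. The same mouse had the highest rRNA share of the injected mice, 4.85% of aligned reads with the next at 2.25%. Mouse gRho mouse 5 stood highest for the leukocyte row mir-142a, at 57.2 CPM with the next at 37.5 CPM, and was also the injected mouse with the highest mir-28a. Mouse gRho mouse 4 stood highest for mir-496a, at 0.812 CPM with the next at 0.440 CPM.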

How the results depend on the processing

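Of 37 alternatives for the comparison of injected with uninjected mice, 29 gave 0 calls. Calls appeared without the TMM factor (2: mir-28a and mir-296), with rows that jump between levels kept (4: mir-224, mir-296, mir-487b and mir-592), with 21 libraries as samples (3: mir-28a, mir-296 and mir-496a), in right eyes (2: mir-1982 and mir-3078), in left eyes (1: mir-28a) and without the mouse gRho mice of 1 title number (1: mir-3078). Leaving out 1 mouse at a time gave 0 to 5 calls: 5 without uninjected mouse 1 (mir-19b-2, mir-28a, mir-296, mir-496a and mir-5113) and 1 without mouse gRho mouse 6 (mir-3078). The cause was not tested. Unadjusted p-values under 0.05 numbered 30 of 342 in the reported fit. They were fewer without the rRNA-rich libraries (4), without both sets of doubted libraries (5), without uninjected mouse 2 (14), without the 2 libraries low in retinal miRNAs (17) and with total reads as the scale or all 5 groups in the fit (19 each). They were more without mouse gRho mouse 1 (49), without uninjected mouse 1, in left eyes or without the mouse gRho mice of another title number (48 each), and with no filter (68 of 841 rows). For the test among treatments DESeq2 called 1 row, and leaving out 1 mouse at a time called 0 to 0.

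Of 18 rows ranked by p, 14 kept their sign in all alternatives that could be fitted, and 7 of 664 values had the other sign. These were mir-9-2 (-0.0055) and mir-9-1 (-0.00033) in right eyes, mir-19b-2 without the rRNA-rich libraries (0.14) and without both sets of doubted libraries (0.066), and mir-496a in the same fits (0.47 and 0.57) and without uninjected mouse 3. mir-496a ranged from -3.03 to 0.36 when 1 mouse was left out. The adjusted p of mir-28a ran from 0.00748 to 0.996 and its log2 fold change from -1.10 to -0.28. Of 23 rows given by cell type, 2 kept their sign throughout, 93 of 848 values had the other sign, and 0 were called in any alternative. The 18 rows were ranked by p in the same mice, and the 23 rows were not. A kept sign among the 18 is in part a result of that ranking, so the sets cannot be compared for stability. The wider rule for jumping rows was chosen after seeing the data and gave 0 calls. No paired analysis was possible because replicate numbers come only from accession order and pair no mice across groups. The standard error had a median of 0.34 over all rows and of 0.19 over rows averaging 10 CPM or more, and with 3 uninjected mice of 1 title number a difference could not be assigned to the injection.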
